A study of Homo sapiens with 8 samples.

Results

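The response of BRCA1+ ovarian cancer cells to the histone deacetylase inhibitor entinostat was examined by comparing the 2 BRCA1 WT Entinostat libraries with the 2 BRCA1 WT Control libraries, which are 4 of the 8 poly(A) RNA-sequencing libraries of the series. The genes described were those of the 25369 named genes in the deposited count table that passed a filter on low counts over all 8 libraries, which left 17714. BRCA1+ cells are UWB1.289 cells, a human ovarian cancer line with a truncating BRCA1 mutation, into which wild-type BRCA1 was transduced, and BRCA1-null cells are the parental UWB1.289 line. The transduced cells are a single derived line, so that any effect particular to that derivation cannot be told apart from an effect of BRCA1. Control cells received the DMSO vehicle and treated cells 0.5 uM entinostat, in both cases for 24 h, and the medium and serum were shared by all groups. Nothing in the labels says that the 2 libraries of a group came from separate cultures, so p-values measure the spread between these libraries, which may be technical.

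Histone acetyltransferases place acetyl groups on lysines of histone tails and histone deacetylases remove them, and acetylated histones mark promoters and enhancers of transcribed genes. Entinostat is a benzamide that inhibits class I deacetylases, mainly HDAC1 and HDAC3, the catalytic subunits of corepressor complexes such as NuRD, CoREST and NCoR/SMRT. Inhibitors of this class are known for raising the cyclin-dependent kinase inhibitor CDKN1A and for de-repressing genes that are silent in a given cell type.

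Total counts were 40896050 and 46970431 in the control libraries 1 and 2 and 31900158 and 46855096 in the entinostat libraries 1 and 2. Levels are given as counts scaled to an effective library size of 1000000 (CPM), first for controls 1 and 2 and then for entinostat 1 and 2, and differences are log2 fold changes of entinostat relative to control with the standard error (SE) after the ± sign. BRCA1 stood at 98.9 and 92.4 CPM in the BRCA1+ controls and at 20.97 and 22.4 CPM in the BRCA1-null controls. Of the ovarian carcinoma markers, the transcription factor PAX8 had 419 and 329 CPM and MUC16 (the antigen CA125) 101 and 78.1 CPM in the controls, whereas WT1 was near 0 at 0.500 and 0.283 CPM. Of 14 leukocyte markers, 7 lay at or under 3 counts in all 4 BRCA1+ libraries, and the summed level of the list was 16.7 to 18 CPM in control and 23.1 to 25.3 CPM in entinostat libraries.

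Entinostat changed 2505 of 17714 genes in BRCA1+ cells (14.1%; edgeR's quasi-likelihood test, Benjamini-Hochberg adjusted p under 0.05), of which 1443 were higher (8.15%) and 1062 lower (6.0%). In all 2505 the control and entinostat libraries did not overlap, which also held for 57.0% of all tested genes. The higher and the lower genes differed in size and in level. The median log2 fold change was 0.74 among the genes that rose and -0.34 among those that fell, and 502 genes rose but only 16 fell by at least 1 on the log2 scale (2.83% and 0.0903% of tested genes, together 2.92%). The genes that rose had a median of 8.24 CPM in the controls and those that fell a median of 63.1 CPM.

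The split between directions depended on the scaling, since with upper-quartile factors 1753 genes were higher and 665 lower (72.5% against 57.6% higher). The median log2 fold change over all tested genes was 0.048 with these factors and 0.00041 with the TMM factors used otherwise. With 1 library left out, the number of called genes was 1277 without control 1, 943 without control 2, 893 without entinostat 1 and 679 without entinostat 2. In all 4 of these fits 498 genes kept their call and direction, 381 higher and 117 lower, and genes described below as stable are among these 498.

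To relate the direction of change to a level that the contrast does not use, genes were grouped by their level in the BRCA1-null control libraries. Among genes under 1 CPM there, 7.77% rose and 0.216% fell in BRCA1+ cells. The balance shifted with level, to 10.2% higher and 3.61% lower at 5 to 20 CPM, 6.87% and 9.92% at 20 to 100 CPM, and 5.51% and 15% over 100 CPM. At low counts a change must be larger to be called. A gene low in BRCA1-null controls could also pass the filter on low counts through another group in which it was higher, so that the shares of the lowest bin are in part fixed by the filter.

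**Figure D1:**
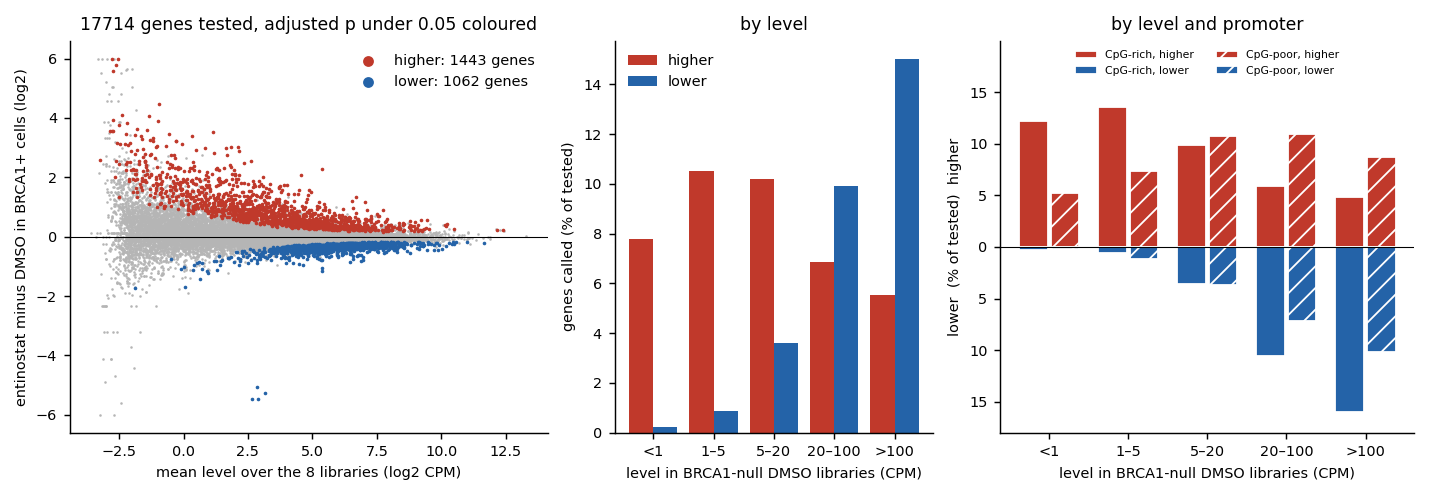
Left, log2 fold change of entinostat relative to DMSO in BRCA1+ cells against mean log2 CPM over the 8 libraries for the 17714 tested genes, with called genes coloured and values beyond 6 drawn at 6. Middle and right, percentage of tested genes called higher (red) or lower (blue) by level in the BRCA1-null DMSO libraries, on the right also by CpG content of the 250 bases before the deposited gene start, with lower calls drawn downwards. Rises were larger and lay at lower levels than falls.

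Promoters rich in CpG dinucleotides were compared with CpG-poor promoters, split at an observed-to-expected CpG ratio of 0.6 in the 250 bases before the deposited gene start (hg19). The contrast between these classes changed sides with level. Under 1 CPM in BRCA1-null controls, 12.2% of 1186 genes with CpG-rich promoters rose against 5.20% of 2056 with CpG-poor promoters. At 20 to 100 CPM, 5.88% of 4505 CpG-rich genes rose against 11% of 1080 CpG-poor genes, and 10.6% against 7.22% fell. Over 100 CPM, 16.0% of CpG-rich and 10.2% of CpG-poor genes fell. A deposited gene start is 1 of several starts for many genes, and for CDKN1A the window before the deposited start was CpG-poor (ratio 0.0917), whereas that before the RefSeq start was CpG-rich (0.758).

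A gene that fell and a gene that rose show what the classes look like in sequence, with every CpG in capitals in the 250 bases before the RefSeq start (5′ to 3′, GRCh38.p14). NCL (chr2:231464485-231464734, minus strand) encodes nucleolin, a nucleolar protein of ribosome production, and fell from 984 and 974 CPM to 725 and 706 CPM (-0.45 ± 0.0460, adjusted p 0.000795). KRT8 (chr12:52926470-52926719, minus strand) encodes a keratin of simple epithelia and rose from 5031 and 4572 CPM to 5789.6 and 5550.4 CPM (0.24 ± 0.0567, adjusted p 0.0248). The NCL stretch holds 34 CpG and the KRT8 stretch 1. The deposited model of KRT8 runs from 53290971 to 53343650 on chromosome 12 (hg19) and overlaps KRT18. The printed stretch lies before 1 RefSeq start of KRT8, which may not be the start used in these cells, and this was not tested. The pair shows the classes and not the directions, since the stretch of CLDN1, a gene that rose, holds 28 CpG. Over all levels, 8.25% of CpG-rich and 7.96% of CpG-poor genes rose, and 7.59% and 2.95% fell.
NCL: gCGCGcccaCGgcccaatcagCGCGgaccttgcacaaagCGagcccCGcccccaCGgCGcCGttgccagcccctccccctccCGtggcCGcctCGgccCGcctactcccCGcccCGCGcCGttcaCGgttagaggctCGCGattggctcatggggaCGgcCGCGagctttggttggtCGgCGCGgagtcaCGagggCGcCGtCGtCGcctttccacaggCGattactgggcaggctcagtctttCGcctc
KRT8: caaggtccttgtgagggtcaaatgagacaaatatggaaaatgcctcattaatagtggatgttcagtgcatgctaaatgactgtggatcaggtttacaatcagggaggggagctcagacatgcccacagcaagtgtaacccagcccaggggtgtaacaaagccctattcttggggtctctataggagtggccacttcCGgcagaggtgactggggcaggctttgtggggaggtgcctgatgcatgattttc
The groups of libraries did not overlap for either gene, as for all called genes. NCL was stable, whereas KRT8 was called without control 1 and in none of the other 3 fits that left out a library.

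Of the genes with a mean of at least 3 log2 CPM, the 15 largest rises spanned 1.56 to 2.28 on the log2 scale, led by NOTCH3, a Notch receptor. NOTCH3 (chr19:15270444-15311792 on hg19) had 24.7 and 24.2 CPM in the controls and 114 and 123 CPM in the entinostat libraries, a rise of 2.28 ± 0.0773 (4.86-fold, adjusted p 3.83e-06). The next was CDH5, the cadherin of endothelial junctions, at 4.15 and 6.82 and then 19.6 and 27.1 CPM (2.09 ± 0.348, adjusted p 0.00624). For both genes the lowest entinostat library lay far above the highest control, although the 2 control libraries of CDH5 differed more from each other. CDH5 lost its call without entinostat 2, as the only 1 of these 15.

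The other 13 genes were stable and came from many kinds of proteins. Src-family tyrosine kinases of lymphocyte signalling were represented by LCK (4.03 and 4.10 to 15.1 and 12.3 CPM) and FYN (3.45 and 3.97 to 13.1 and 11.6 CPM), and CORO1A, an actin-binding coronin of leukocytes, went from 10.9 and 8.52 to 32.9 and 25.3 CPM. Channel and receptor genes were KCNN4, a calcium-activated potassium channel (3.03 and 3.16 to 9.33 and 9.79 CPM), and GABRB2, a GABA-A receptor subunit (5.90 and 4.58 to 17.7 and 15.3 CPM). Each of these 5 genes was 2.99- to 3.34-fold higher. COL1A1, the alpha-1 chain of type I collagen, rose from 4.45 and 4.07 to 15.5 and 13.99 CPM, and IL1A, the cytokine interleukin-1 alpha, from 3.10 and 3.31 to 11.1 and 9.66 CPM. NMNAT2, an enzyme of NAD synthesis in axons, reached 26.9 and 28 CPM from 9.15 and 7.21 CPM, and UBE2L6, the conjugating enzyme for the ubiquitin-like ISG15, 23.9 and 19.7 CPM from 7.40 and 5.93 CPM. The remaining genes were ZNF385A, OLFML2A, RTN2 and CLIP2, with rises of 2.01, 1.78, 1.61 and 1.56.

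**Figure D2:**
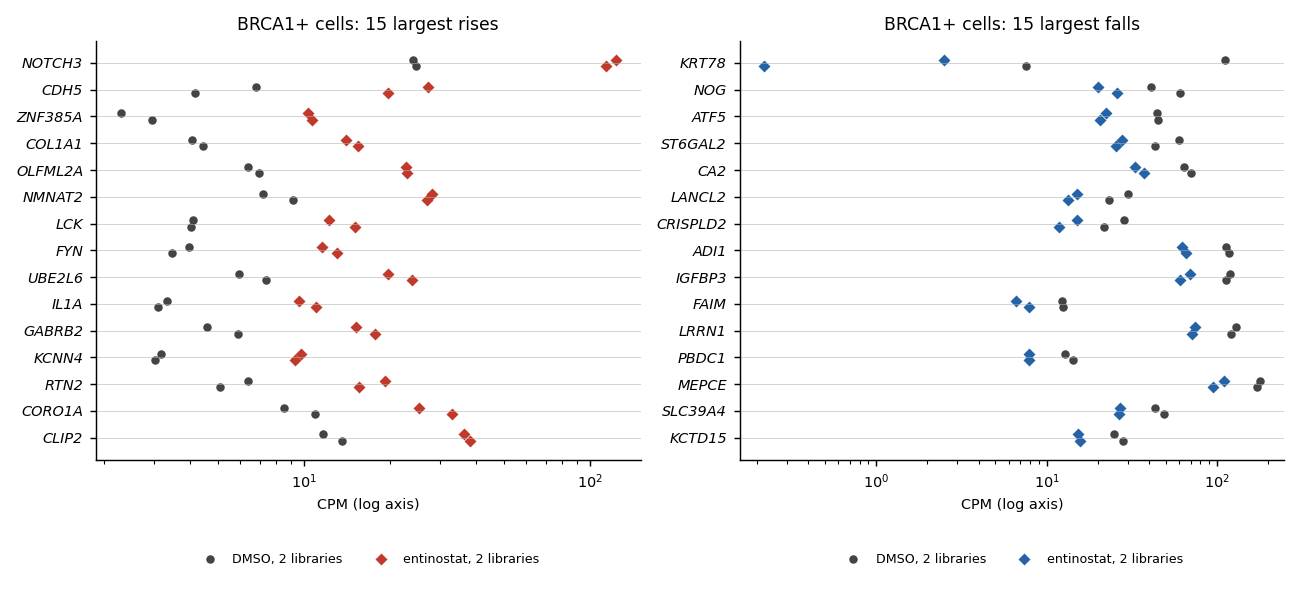
CPM on a log axis in each BRCA1+ library for the 15 largest rises (left) and the 15 largest falls (right) among called genes with a mean of at least 3 log2 CPM. Each point is 1 library, circles are DMSO and diamonds entinostat. The 2 groups of points do not overlap for any of the 30 genes, which the rule that chose them required.

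The 15 largest falls were smaller, from -0.77 to -1.16 on the log2 scale once the keratin gene KRT78, described below, is set aside. NOG encodes noggin, a secreted antagonist of bone morphogenetic proteins, and dropped from 60.4 and 40.98 CPM to 25.8 and 19.9 CPM (-1.16 ± 0.185, adjusted p 0.00555). ATF5, a stress-response transcription factor, went from 45.3 and 44.4 CPM to 20.6 and 22.4 CPM (-1.06 ± 0.0745, adjusted p 0.000204). Its replicates were close to each other in both groups, and the call was stable, while that of NOG was lost without entinostat 2. ATF5 overlaps copies of the short SNAR-A genes in the deposited positions.

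Enzymes among these falls were ADI1 of methionine salvage (118 and 112 to 65.4 and 61.97 CPM), the sialyltransferase ST6GAL2 (43.3 and 59.8 to 25.4 and 27.5 CPM) and carbonic anhydrase CA2 (70.4 and 63.9 to 37.3 and 33.2 CPM), of which CA2 lost its call whichever BRCA1+ library was left out. IGFBP3, a binding protein of insulin-like growth factors, fell from 113 and 119.6 to 60.8 and 69.3 CPM, and the zinc importer SLC39A4 from 48.8 and 43.3 to 26.8 and 27.1 CPM. MEPCE, which caps 7SK RNA, fell from 171 and 178 to 94.3 and 109 CPM, and LRRN1, a leucine-rich repeat membrane protein, from 121 and 129.5 to 70.99 and 74 CPM. All 4 of these calls were stable. LANCL2, CRISPLD2, FAIM, PBDC1 and KCTD15 fell by 0.90, 0.88, 0.79, 0.78 and 0.77 on the log2 scale, with LANCL2 and KCTD15 stable.

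Genes near silence in the controls were searched for at no more than 3 counts in each control and at least 20 in each entinostat library, which found 3 genes, and 0 genes met the reverse. PRTN3, a serine protease of neutrophil granules, had 2 and 2 counts in the controls and 22 and 44 in the entinostat libraries. SYT5, a synaptotagmin of regulated secretion, had 2 and 2 and then 20 and 45 counts, and QPCT, glutaminyl cyclase, 2 and 3 and then 26 and 21 counts. Against a floor of 3 counts per library their mean CPM was at least 11.7-, 11.4- and 9.06-fold higher. All 3 were called (adjusted p 0.00183, 0.00246 and 0.024), although QPCT was called in none of the fits that left out a BRCA1+ library. All 3 stayed under 1 CPM with entinostat. They were chosen by the same counts that the test used, so that their calls are in large part fixed by that choice.

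The 8 called genes with the largest loss in CPM included NCL, given above, and CCND1, given below. ACTG1, cytoplasmic gamma actin, went from 3900.4 and 4082 CPM to 3369.8 and 3562 CPM and EIF4G2, a translation initiation factor, from 1218 and 1353 to 930.5 and 984 CPM. The mitochondrial chaperonin HSPD1 fell from 1384 and 1338 to 1128 and 1059 CPM and the cytosolic chaperone HSP90AB1 from 2298 and 2187 to 2053 and 1933 CPM. These log2 fold changes were modest, between -0.43 for EIF4G2 and -0.17 for HSP90AB1, and the calls of ACTG1 and HSP90AB1 were lost whichever BRCA1+ library was left out. The initiation helicase EIF4A1 and the readthrough locus SENP3-EIF4A1, which share reads, had -0.25 and -0.24. SPOCK2, a matrix proteoglycan, was also among the 8, with -0.23.

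Among called genes KRT8 had the largest gain in CPM, followed by KRT18, CLDN1 and CYR61. KRT18, the partner of KRT8, went from 4359.8 and 4228 CPM to 5086 and 4939.9 CPM and overlaps KRT8 in the deposited positions. CLDN1, a claudin of tight junctions, rose from 1269 and 1244 to 1674 and 1721 CPM (0.43 ± 0.0581) and CYR61, a matricellular protein, from 1146 and 1048 to 1499.9 and 1399 CPM (0.40 ± 0.0656), and both were stable. MYH9 (non-muscle myosin heavy chain), MSN (moesin, a linker of actin to the membrane) and RTN4 (a reticulon) rose by 0.27, 0.37 and 0.38 and were each called in 1 of the 4 fits that left out a BRCA1+ library. KRT18 was called in none of them.

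Members of the cell division machinery were lower by small amounts. Of 27 CDK inhibitors, cyclins and E2F factors 4 rose and 4 fell, of 51 replication genes 1 rose and 9 fell (1.96% and 17.6%), and of 65 mitotic genes 1 rose and 15 fell (1.54% and 23.1%), beside 8.15% and 6.0% of all genes. The share that fell depended on level, and of all genes at 20 to 100 and over 100 CPM in BRCA1-null controls 9.92% and 15% fell. Many of the replication and mitotic genes named below lay at these levels, and the lists were not compared with genes of the same level. Medians of the lists, in the same order, were -0.078, -0.144 and -0.093 on the log2 scale. Fewer of these genes were called when 1 BRCA1+ library was left out, which leaves 1 library in a group and can detect fewer changes. Without control 1, control 2, entinostat 1 and entinostat 2 the mitotic median was -0.0884, -0.0909, -0.146 and -0.0706. The replication median was -0.162, -0.107, -0.123 and -0.129. With upper-quartile scaling 2 mitotic genes were higher and 8 lower.

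The inhibitor CDKN1A (p21, which blocks the cyclin-dependent kinases of the G1/S transition) was the gene of these lists that changed most. It had 4.20 and 3.83 CPM in the controls and 13.7 and 12.4 CPM with entinostat, a rise of 1.69 ± 0.208 (3.24-fold, adjusted p 0.00176), and it was stable. The replicates of each group lay close together in comparison with the distance between the groups. CDKN2B (p15) had 23.3 and 24.4 and then 30.7 and 31.9 CPM (0.39 ± 0.111, adjusted p 0.0481), overlaps the antisense gene CDKN2B-AS1, and was called in none of the fits without a BRCA1+ library.

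The 250 bases before the RefSeq starts of CDKN1A (chr6:36678464-36678713, plus strand) and NOTCH3 (chr19:15200996-15201245, minus strand) are shown because both genes rose in a stable way and CDKN1A is the textbook gene of deacetylase inhibition, and the GC boxes GGGCGG, the letters bound by Sp1-family factors, are in capitals (GRCh38.p14, RefSeq, 5′ to 3′; both strands were searched, and 4 and 5 matches were found, overlaps included).
CDKN1A: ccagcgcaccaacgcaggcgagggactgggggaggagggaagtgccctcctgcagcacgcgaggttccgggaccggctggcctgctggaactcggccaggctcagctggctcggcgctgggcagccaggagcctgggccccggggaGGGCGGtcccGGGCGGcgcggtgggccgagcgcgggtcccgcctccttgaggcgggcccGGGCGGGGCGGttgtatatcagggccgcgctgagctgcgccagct
NOTCH3: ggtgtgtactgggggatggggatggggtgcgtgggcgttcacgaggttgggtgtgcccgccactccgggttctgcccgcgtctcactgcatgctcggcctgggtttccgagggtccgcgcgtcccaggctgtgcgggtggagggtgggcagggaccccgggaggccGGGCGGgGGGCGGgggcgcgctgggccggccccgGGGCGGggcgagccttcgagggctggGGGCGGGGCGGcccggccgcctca
The same letters occurred in 55.2% of all 250-base windows before deposited starts, in 66.3% of those of the genes that rose and in 65.3% of those of the genes that fell, so that their presence did not separate the directions.

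The D-type cyclins moved in opposite directions. CCND1 (cyclin D1), a cyclin of the G1 phase, fell from 1034 and 1157 CPM to 758 and 843 CPM (-0.45 ± 0.0934, adjusted p 0.0143), and CCND2 fell from 282 and 275 to 239.6 and 237 CPM. CCND3 rose from 50.8 and 46.5 to 66.7 and 63.5 CPM (0.42 ± 0.0992). CCND1 was called without control 1 and without entinostat 2 but not in the other 2 fits, and CCND2 and CCND3 in none of the 4.

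Replication genes that fell included RRM2, the small subunit of ribonucleotide reductase, which went from 235 and 237 CPM to 179 and 173 CPM (-0.42 ± 0.0556, adjusted p 0.00239) and was stable. In the group of the MCM helicase and its loading partners all 16 log2 fold changes were negative, with a median of -0.202, and 6 were called. MCM5, MCM7 and MCM4 fell by 0.37, 0.30 and 0.28, CDC45 by 0.28 and DBF4, the activator of the CDC7 kinase, by 0.29. In the fits without control 1, control 2, entinostat 1 and entinostat 2 the numbers of these 6 still called were 4, 2, 2 and 0. The gene that rose was RFC1, a subunit of the clamp loader (0.21).

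Mitotic genes that fell were the cyclins CCNA2 (96.3 and 101 to 76.8 and 80.5 CPM) and CCNB1 (269 and 275 to 223 and 219.9 CPM), the kinases PLK1 (-0.29) and AURKA (-0.25), the phosphatase CDC25A (-0.32) and the centromere protein CENPN (-0.38). HMMR, a spindle-associated hyaluronan receptor, changed most (-0.48 ± 0.133, adjusted p 0.0434), and only TACC3, a spindle protein, was stable (468 and 465 to 381 and 384 CPM, -0.29). FOXM1, the transcription factor of late cell cycle genes, fell by 0.27, while NUSAP1, a microtubule-bundling protein, rose by 0.28.

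Late cell cycle promoters are known for CCAAT boxes and for the cell cycle homology region (CHR, TTTGAA), to which MuvB complexes bind. Both are in capitals in the 250 bases before the RefSeq starts of 3 of the genes that fell, CDC20 (chr1:43358731-43358980, plus strand), PLK1 (chr16:23678639-23678888, plus strand) and CDCA8 (chr1:37692266-37692515, plus strand), with both strands searched (GRCh38.p14, RefSeq, 5′ to 3′; in CDCA8 a CHR and a CCAAT box overlap).
CDC20: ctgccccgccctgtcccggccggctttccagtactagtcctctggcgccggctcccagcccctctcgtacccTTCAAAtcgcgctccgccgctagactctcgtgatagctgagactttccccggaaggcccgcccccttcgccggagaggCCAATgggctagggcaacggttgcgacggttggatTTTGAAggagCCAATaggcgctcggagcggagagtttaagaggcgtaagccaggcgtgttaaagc
PLK1: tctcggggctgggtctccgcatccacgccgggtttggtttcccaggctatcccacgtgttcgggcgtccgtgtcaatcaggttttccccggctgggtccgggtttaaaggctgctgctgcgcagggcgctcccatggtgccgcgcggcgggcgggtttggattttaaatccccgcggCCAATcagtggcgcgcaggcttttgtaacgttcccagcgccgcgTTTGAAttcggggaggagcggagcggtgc
CDCA8: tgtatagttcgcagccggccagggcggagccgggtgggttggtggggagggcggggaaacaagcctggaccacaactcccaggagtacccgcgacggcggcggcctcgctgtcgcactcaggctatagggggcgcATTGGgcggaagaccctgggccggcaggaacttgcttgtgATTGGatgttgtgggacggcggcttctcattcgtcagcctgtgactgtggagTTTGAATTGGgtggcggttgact
CDC20, the activator of the anaphase-promoting complex, fell from 340.0 and 355 to 287 and 297 CPM, PLK1 from 321 and 318 to 266 and 255 CPM, and CDCA8, borealin of the chromosomal passenger complex, from 95.9 and 98.7 to 80.7 and 81.7 CPM. In the 250 bases before the deposited starts, a CCAAT box was found for 55.4% of the 65 mitotic genes and 32.1% of all genes, and a CHR for 23.1% and 9.85%. With the 50 bases after the start included, the CHR was found for 52.3% of mitotic and 11.3% of all genes. Within the mitotic list, the wider windows held it for 46.7% of the 15 genes that fell and for 54.0% of the 50 others. For the CCAAT box these shares were 86.7% and 62%. Neither difference was tested.

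Of 12 tested acetyltransferases and BET bromodomain genes 6 fell and 0 rose (beside 6.0% lower among all genes), with a median of -0.297 and positive values in 4 of the 12. KAT2A (GCN5) went from 83.2 and 77.98 CPM to 56.7 and 51.5 CPM (-0.58 ± 0.0780, adjusted p 0.00264). CREBBP, which encodes CBP, went from 76.5 and 76.3 CPM to 58.2 and 59.2 CPM (-0.38 ± 0.0614, adjusted p 0.00565), and its relative EP300 (p300) from 99.7 and 110.2 to 75.8 and 83.1 CPM. KAT6B, KAT7 and KAT5 fell by 0.48, 0.42 and 0.36. As for all called genes, the groups of libraries did not overlap for these 6. KAT2A, KAT6B and CREBBP were stable, and the other calls were not. The median of the list was -0.263, -0.335, -0.303 and -0.285 without control 1, control 2, entinostat 1 and entinostat 2. The acetyltransferase KAT8 (35.2 and 32.2 and then 36.2 and 31.6 CPM) was not called (adjusted p 0.987).

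Of the class I deacetylases, HDAC1 rose from 246 and 259 to 291 and 312 CPM (0.26 ± 0.0554) and HDAC3 from 68.2 and 69.2 to 78.7 and 81.6 CPM (0.22 ± 0.0578). HDAC8 had 14.8 and 16.01 and then 18.4 and 21.3 CPM (0.38, adjusted p 0.0679) and HDAC2 305 and 315 and then 305 and 303 CPM (-0.03, adjusted p 0.815), and neither was called. HDAC5, of class IIa, rose from 25.1 and 22.5 to 36.01 and 32.8 CPM (0.53 ± 0.0880) and was stable, while the calls of HDAC1 and HDAC3 were each lost in most fits without a BRCA1+ library (0, 0, 1 and 0 of the 2 kept without control 1, control 2, entinostat 1 and entinostat 2). Of 29 corepressor subunits 3 rose and 2 fell (10.3% and 6.9%, near the 8.15% and 6.0% of all genes). MBD3, a subunit of the NuRD complex, fell from 73.8 and 74.4 to 43.96 and 49.3 CPM (-0.66) and was stable, BRMS1 of the SIN3 complex fell by 0.31, and RCOR2 of CoREST rose by 0.87 from 2.63 and 2.16 to 4.23 and 4.46 CPM.

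Of 38 histone genes 1 rose and 2 fell (2.63% and 5.26%, beside 8.15% and 6.0% of all genes), so that the share that fell was near that of all genes. H1F0, the linker histone of resting and differentiated cells, rose from 42.7 and 37.7 CPM to 68.4 and 63.8 CPM (0.72 ± 0.117, adjusted p 0.00592) and was stable. The variants H2AFX and H2AFZ fell by 0.36 and 0.21, and 0 of 27 replication-dependent cluster histones were called. Transcripts of the last group mostly lack a poly(A) tail and are poorly captured by a poly(A) protocol.

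**Figure D3:**
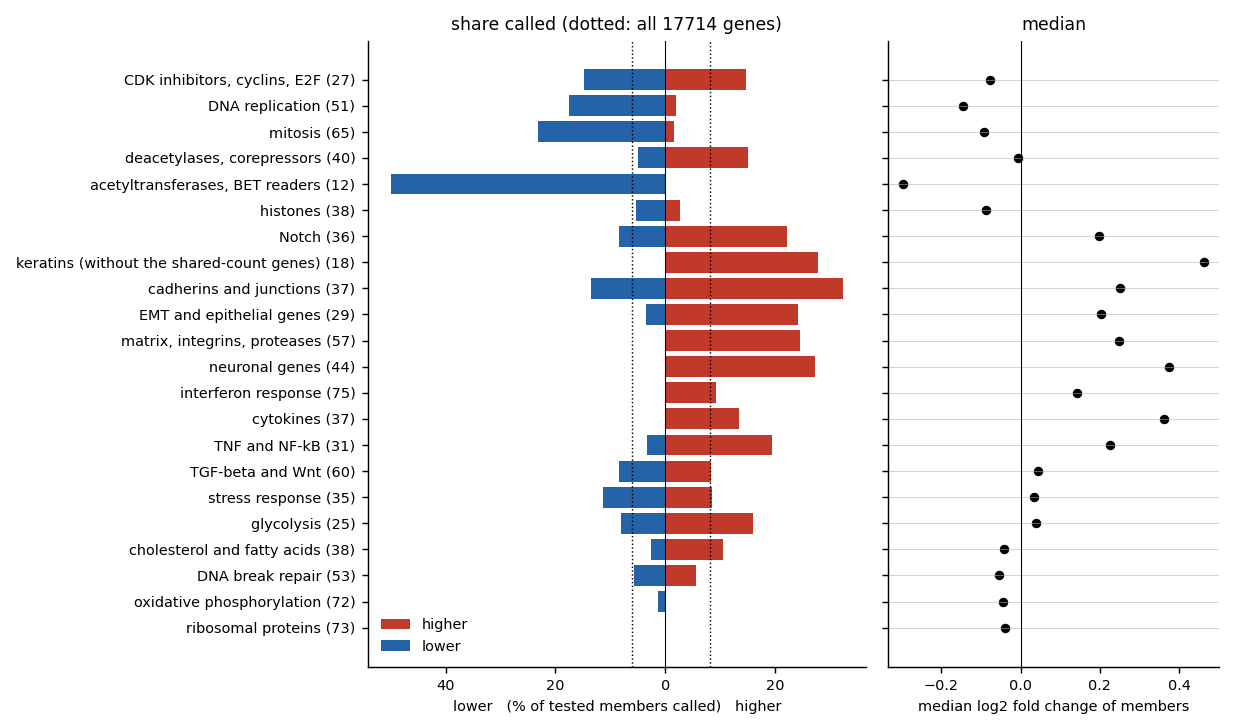
Left, percentage of tested members called higher (red, to the right) or lower (blue, to the left) in BRCA1+ cells for 22 gene lists, with the number tested in parentheses and dotted lines at 8.15% and 6.0%, the shares of all tested genes. Right, the median log2 fold change of each list. Cell division and acetyltransferase lists lie on the lower side, and keratin, adhesion, matrix and neuronal lists on the higher side.

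In the Notch pathway, in which membrane ligands on a neighbouring cell trigger cleavage of the receptor and release of a transcriptional coactivator, 8 of 36 genes rose and 3 fell (22.2% and 8.33%), with 7, 4, 4 and 4 of the 11 calls kept without control 1, control 2, entinostat 1 and entinostat 2. Besides NOTCH3, the receptor NOTCH2 rose from 333 and 336 to 393 and 403 CPM (0.25 ± 0.0489), whereas NOTCH1 had 108 and 82.8 and then 80.2 and 64.3 CPM (-0.41, adjusted p 0.0847) and was not called. The ligands also parted: JAG1, an activating ligand, fell from 53.2 and 54.2 to 38.7 and 36.5 CPM (-0.52), and DLL3, a ligand that acts within the cell as an inhibitor, rose from 9.38 and 9.52 to 17.1 and 15.7 CPM (0.79 ± 0.117) and was stable. Of 10 targets 2 rose, the repressor HES7 (19.4 and 10.5 to 36.3 and 25.6 CPM) and the E3 ligase DTX1 (3.15 and 2.88 to 4.57 and 4.44 CPM), neither stable. The canonical targets HES1 (0.25, adjusted p 0.488) and HEY1 (0.57, adjusted p 0.217) were not called. Of the gamma-secretase genes, APH1B rose by 1.38 and was stable, and PSEN2 fell by 0.55.

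Epithelial adhesion genes moved in both directions, with 12 of 37 higher and 5 lower (32.4% and 13.5%), and 10, 6, 7 and 5 of the 17 calls were kept without control 1, control 2, entinostat 1 and entinostat 2. CDH1, E-cadherin of adherens junctions, rose from 56.7 and 52.1 CPM to 84.05 and 85.4 CPM (0.64 ± 0.122, adjusted p 0.0102) and CDH3, P-cadherin, from 81.7 and 77.8 to 105 and 103 CPM. Tight junction genes rose more often than they fell (7 and 1 of 19). TJP3, the scaffold ZO-3, went from 22.1 and 22.4 CPM to 52.8 and 53.9 CPM (1.26 ± 0.0680, adjusted p 0.000106), and CLDN4 from 117 and 104 to 157 and 159 CPM. Desmosome genes were split. JUP (plakoglobin) rose from 341 and 340.4 to 446 and 492 CPM and DSC3 by 1.09, whereas PKP3 (plakophilin-3) fell from 93.8 and 86.4 to 66.6 and 64.3 CPM and PKP2 and DSP (desmoplakin) by 0.25 and 0.21. CLDN1, TJP3, JUP and PKP3 were stable.

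Of 29 genes of epithelial-mesenchymal transition 7 rose and 1 fell (24.1% and 3.45%, beside 8.15% and 6.0% of all genes). VIM, the mesenchymal intermediate filament vimentin, had 46.1 and 52.1 CPM in controls and 107 and 114 CPM with entinostat (1.16 ± 0.0765, adjusted p 0.000168). It overlaps the antisense gene VIM-AS1. SNAI1, a repressor of CDH1, had 2.35 and 1.96 and then 5.14 and 4.44 CPM (1.14 ± 0.282), and its call was lost whichever BRCA1+ library was left out. Epithelial genes of the list rose as well, among them the small GTPase RAB25 (0.31), while ESRP2, a splicing factor of epithelial isoforms, fell from 60.7 and 64.1 to 42.04 and 42.4 CPM (-0.56). VIM and ESRP2 were among the stable calls, and 5, 3, 4 and 4 of the 8 calls were kept without control 1, control 2, entinostat 1 and entinostat 2. EPCAM (adjusted p 0.871) and N-cadherin CDH2 (adjusted p 0.274) were not called.

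Keratins need a qualification. Of 29 tested keratins 8 rose and 4 fell (27.6% and 13.8%, beside 8.15% and 6.0% of all genes). Of the 29, 11 and KRT71 beside them lie side by side in the type II keratin cluster on chromosome 12, from KRT71 to KRT78. Several of them had the same or nearly the same counts as a neighbour, whereas KRT72 lay above and KRT3 below the neighbours they moved with. KRT71 had 18 and 27 counts in the controls and 45 and 108 in the entinostat libraries, and KRT77 18 and 27 and 0 and 108. KRT71 had multiples of 9 in all 8 libraries. KRT4 had 288 and 5131 and then 0 and 108 counts, and KRT79, its neighbour, 288 and 5130 and then 0 and 108. The 2 controls of KRT4 thus differed widely from each other. On the count scale its control 1 was closer to entinostat 2 than to control 2. In BRCA1-null cells KRT4 had 7557 and 9504 counts in the controls and 67 and 92 with entinostat, and KRT79, KRT78 and KRT3 fell there as well. These counts cannot be read as levels of single genes, and the cause was not tested. Of the 4 falls (-5.46, -5.46, -5.28 and -5.05 for KRT4, KRT79, KRT78 and KRT3) each kept its call without control 1 and lost it in the other 3 fits that left out a BRCA1+ library.

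**Figure D4:**
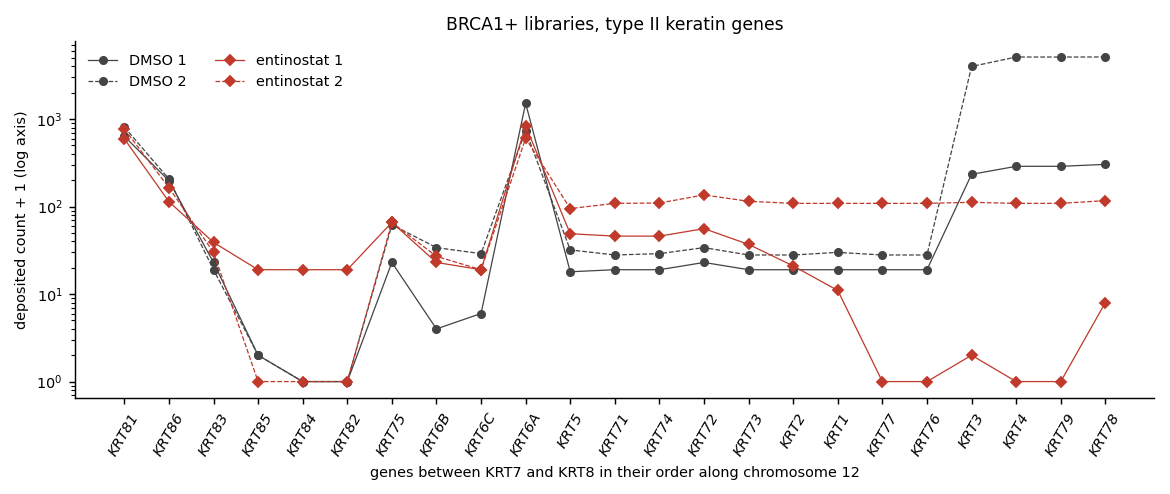
Deposited counts plus 1 on a log axis in each BRCA1+ library for the genes between KRT7 and KRT8 in their order along chromosome 12, with control libraries in grey and entinostat libraries in red. From KRT71 to KRT76 the lines are nearly flat except in entinostat 1, where the count goes from 45 to 0, and KRT4, KRT79 and KRT78 have nearly the same count in the other 3 libraries, with 0, 0 and 7 in entinostat 1.

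Without these 11 genes, 5 of 18 keratins rose and 0 fell (27.8% higher, beside 8.15% of all genes), with a median of 0.463. KRT19, a simple epithelial keratin, rose from 508 and 471 CPM to 709 and 742 CPM (0.57 ± 0.0543, adjusted p 0.000552) and was stable, as was KRT13 of stratified mucosa, at 1.58 and 1.22 and then 5.01 and 5.35 CPM (1.91 ± 0.215, adjusted p 0.00122). KRT15, a basal keratin, rose by 0.84. KRT7, at 4941 and 4762 and then 5741 and 5972 CPM, was not called (adjusted p 0.22). SULT2B1, a cholesterol sulfotransferase of keratinising epithelia that overlaps SNAR-A copies, was the only 1 of 14 tested squamous differentiation genes called, at 3.03 and 3.18 and then 16.2 and 20.004 CPM (2.55 ± 0.170).

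Genes of the extracellular matrix, its receptors and its proteases rose in 14 of 57 cases and fell in 0 (24.6%; 21 and 1 in a fit of the 4 BRCA1+ libraries alone), and 11 of the 14 calls were kept in each of the 4 fits without a BRCA1+ library, 10 of them in all 4. Laminins of basement membranes were among them, with LAMB3 at 47.95 and 34.1 and then 90.4 and 69.1 CPM (0.96 ± 0.162), LAMB2 at 73.5 and 74.3 and then 111 and 120.4 CPM and LAMA3 at 270.4 and 233 and then 372 and 354 CPM. COL4A5 and COL4A6, chains of type IV collagen, rose by 0.84 and 1.41. All 3 integrin calls were stable, namely ITGB3 (242 and 234 to 382 and 394 CPM, 0.71 ± 0.0564, adjusted p 0.000331), its partner ITGAV (239 and 253 to 325 and 344 CPM) and the collagen receptor ITGA1 (2.13 and 2.59 to 7.51 and 6.25 CPM, 1.52 ± 0.168). Of the proteases and inhibitors, PLAUR (the urokinase receptor), the protease inhibitor TIMP2 and the membrane metalloproteinase MMP15 rose by 0.63, 0.59 and 0.56, each stable.

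Many neuronal genes are repressed outside neurons by REST together with class I deacetylases and CoREST. Of 61 listed neuronal genes 44 passed the filter on low counts. Of these 44, 12 rose and 0 fell (27.3% higher, beside 8.15% of all genes), with a median of 0.375. A member near 0 could pass the filter through a group in which it was higher, so these shares are in part fixed by the filter. L1CAM, a neural adhesion molecule, had 203 and 188 CPM in controls and 305 and 284 CPM with entinostat (0.59 ± 0.0712, adjusted p 0.00166). RAB3A, a GTPase of synaptic vesicles, rose from 5.83 and 6.04 to 10.03 and 9.98 CPM and GAD1, the enzyme of GABA synthesis, from 3.002 and 4.01 to 6.94 and 7.54 CPM. Of the 12 calls only those of L1CAM and RAB3A were stable, and 5, 3, 4 and 2 were kept without control 1, control 2, entinostat 1 and entinostat 2. MAP2, a dendritic microtubule protein, and the synaptotagmin SYT11 rose by 0.93 and 1.49. The sodium channel SCN2A went from 0 counts in both controls to 3 and 12, levels at which its fold cannot be given. REST itself (38.3 and 39.7 and then 37.1 and 35.7 CPM, adjusted p 0.385) and RCOR1 (adjusted p 0.515) were not called.

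Inflammatory and interferon genes rose in part. Of 75 tested interferon genes 7 rose and 0 fell (9.33%, close to the 8.15% of all genes), of 37 cytokine genes 5 and 0 (13.5%), and of 31 genes of TNF and NF-kB signalling 6 and 1 (19.4% and 3.23%). CD274, the checkpoint ligand PD-L1, rose from 2.85 and 3.20 to 5.33 and 5.67 CPM (0.86 ± 0.151), NLRC5, a transactivator of MHC class I genes, from 0.500 and 0.915 to 2.18 and 1.47 CPM, and B2M, the light chain of MHC class I, from 136 and 131 to 170.2 and 161 CPM. The interferon-stimulated genes ISG15 (0.11, adjusted p 0.788) and IFIT1 (1.14, adjusted p 0.384) were not called. Without control 1, control 2, entinostat 1 and entinostat 2, 3, 2, 3 and 1 of the 7 interferon calls were kept. In a fit of the 4 BRCA1+ libraries alone 14 interferon genes were higher and 2 lower, and 8 cytokine genes were higher and 1 lower.

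Besides IL1A, the chemokines CXCL8 and CX3CL1 rose, CXCL8 from 108 and 79.05 to 200.2 and 152 CPM (0.91 ± 0.232, adjusted p 0.0315) and CX3CL1 from 0.875 and 0.850 to 2.87 and 2.93 CPM. TNFAIP2, a TNF-induced gene, changed most clearly in the TNF and NF-kB list, at 51.5 and 48.5 and then 132 and 117 CPM (1.32 ± 0.0856, adjusted p 0.000168), and the adhesion receptor ICAM1 rose from 93 and 75.1 to 147 and 125 CPM. TNFSF10, the death ligand TRAIL, rose from 1.18 and 1.39 to 3.34 and 3.30 CPM (1.36 ± 0.238) and its receptor TNFRSF10B by 0.29, while TNFRSF12A, the TWEAK receptor, fell by 0.36. IL1A, TNFAIP2 and ICAM1 were stable, and the others lost their call in 1 or more of the 4 fits, with 3, 3, 2 and 1 of the 5 cytokine calls and 4, 3, 3 and 3 of the 7 TNF and NF-kB calls kept.

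In TGF-beta and Wnt signalling 5 of 60 genes rose and 5 fell (8.33% each, near the shares of all genes). The ligand TGFB1 rose from 39.5 and 33.5 to 63.2 and 54.7 CPM and the stress-induced GDF15 from 16.4 and 17.2 to 38.2 and 51.8 CPM. DKK3, a secreted Dickkopf-family protein, rose by 1.00 and was the stable call of the list, whereas the Wnt antagonist SFRP1 fell from 214 and 215 to 153 and 161 CPM and the Wnt receptor FZD8 by 0.71. Without control 1, control 2, entinostat 1 and entinostat 2, 5, 4, 4 and 2 of these 10 calls were kept.

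Growth and stress metabolism changed in a few genes. Of 21 genes of the ATF4 pathway 1 rose and 4 fell (4.76% and 19%), and with ATF5 the amino acid exchanger SLC7A5 (513 and 546 to 351 and 402 CPM, -0.49) and its heavy chain SLC3A2 (-0.25) fell, while DDIT4, an inhibitor of mTORC1, rose by 0.40. Of 25 glycolysis and hypoxia genes 4 rose and 2 fell (16% and 8%, beside 8.15% and 6.0% of all genes). LDHA (lactate dehydrogenase) fell from 697 and 693 to 557 and 554 CPM and ALDOA (aldolase) from 1589 and 1592 to 1395 and 1426 CPM. ENO2, the neuronal enolase, rose from 12.9 and 11.9 to 22.8 and 22.4 CPM (0.86 ± 0.0935), and PFKFB4, P4HA1 and HK1 rose as well. Of the 2 enzymes that fell, ALDOA was called in none of the fits without a BRCA1+ library, and ENO2 was stable. DHCR7, the last enzyme of cholesterol synthesis, was the only 1 of 26 cholesterol genes called, with a fall of 0.42. Of 73 ribosomal protein genes 0 were called and of 72 oxidative phosphorylation genes 1 (NDUFS3, -0.26).

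Of the DNA break repair genes few were called, with 3 of 53 higher and 3 lower (5.66% each). BRCA1 rose from 98.9 and 92.4 CPM to 133 and 118 CPM (0.39 ± 0.0784, adjusted p 0.0124). These reads come from both the introduced and the resident gene, which the counts do not separate. TP53BP1 (53BP1, which favours end joining) rose by 0.39, NHEJ1 (XLF, an end-joining factor) fell from 5.55 and 5.86 to 3.44 and 2.91 CPM (-0.87), and XRCC3, a gene of homologous recombination, fell by 0.37. Of these 6 calls 4, 2, 2 and 1 were kept without control 1, control 2, entinostat 1 and entinostat 2. Of 24 tested apoptosis genes 2 rose and 1 fell (8.33% and 4.17%, near the 8.15% and 6.0% of all genes). In the BCL2 family BIK, a pro-apoptotic BH3-only protein, rose from 1.35 and 1.29 to 3.09 and 2.87 CPM and BAK1 by 0.35. The inhibitor of apoptosis BIRC5, outside that family, fell by 0.23, and none of these calls was stable.

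Of 45 listed cancer-testis genes, which are normally silent outside the germline, 11 passed the filter on low counts. Of these 11, 3 rose and 0 fell (27.3% higher, beside 8.15% of all genes). A member near 0 could pass through a group in which it was higher, so these shares are in part fixed by the filter. TEX15, a gene of meiotic recombination, rose from 2.93 and 3.49 to 7.16 and 8.30 CPM (1.27 ± 0.167, adjusted p 0.00231) and was stable, and DDX43 and PRAME, called in 2 of the 4 fits, rose by 0.58 and 0.30. Of the markers of other cell types, 0 of 6 tested leukocyte and 1 of 5 mesothelial markers were called. Of 13 endothelial markers 3 rose, CDH5, TIE1 (0.150 and 0.196 to 0.915 and 0.884 CPM) and EGFL7 (23.3 and 19.96 to 35.6 and 37.1 CPM), and the summed level of 14 markers went from 53.4 to 54.9 CPM to 84.5 to 95.8 CPM. Of the fibroblast markers, COL1A1 and PDGFRA (1 and 0 to 12 and 42 counts) rose, 2 of the 6 tested had negative fold changes, and DCN, LUM, COL3A1, PDGFRB and FAP stayed at or under 3 counts in all 4 libraries. The samples are cultures of a cell line, and a part of other cells in these values was not tested.

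The same contrast in BRCA1-null cells called 1906 genes (10.8%), with 1341 higher (7.57%) and 565 lower (3.19%). Both lines called 1213 genes, which is 48.4% of the calls in BRCA1+ and 63.6% of those in BRCA1-null cells, and all 1213 had the same direction. Of the 2505 genes called in BRCA1+ cells, 98.6% had the same sign in BRCA1-null cells, against 74.2% of all tested genes. The test of the difference between the 2 effects called 0 genes in edgeR, with 827 genes (4.67%) at an unadjusted p under 0.05 and a smallest adjusted p of 0.66, and 11 genes in the DESeq2 Wald test.

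The genes described here were chosen by their change in BRCA1+ cells, so that a smaller change in BRCA1-null cells is in part fixed by that choice. NOTCH3 rose there by 1.88 ± 0.0795 (adjusted p 2.92e-05) and CDKN1A by 1.22 ± 0.204 (adjusted p 0.00863). VIM rose by 0.51 ± 0.0712 in place of 1.16 ± 0.0765, with an unadjusted p of 0.000139 for the difference, KCNN4 by 0.77 ± 0.0723 in place of 1.63 ± 0.116 (unadjusted p 0.000149), and ATF5 changed by -0.56 in place of -1.06 (unadjusted p 0.000809). None of these differences passed the adjustment over all genes. Among the genes called in both lines, 796 of 1213 had the larger absolute log2 fold change in BRCA1+ cells. CXCL8 was an example of the reverse, with 1.58 ± 0.232 in BRCA1-null and 0.91 ± 0.232 in BRCA1+ cells (unadjusted p 0.0701). Acetyltransferases also fell in BRCA1-null cells, with -0.44 for KAT6B and -0.40 for CREBBP, and KAT2A, KAT7, EP300 and KAT5 were called as well.

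**Figure D5:**
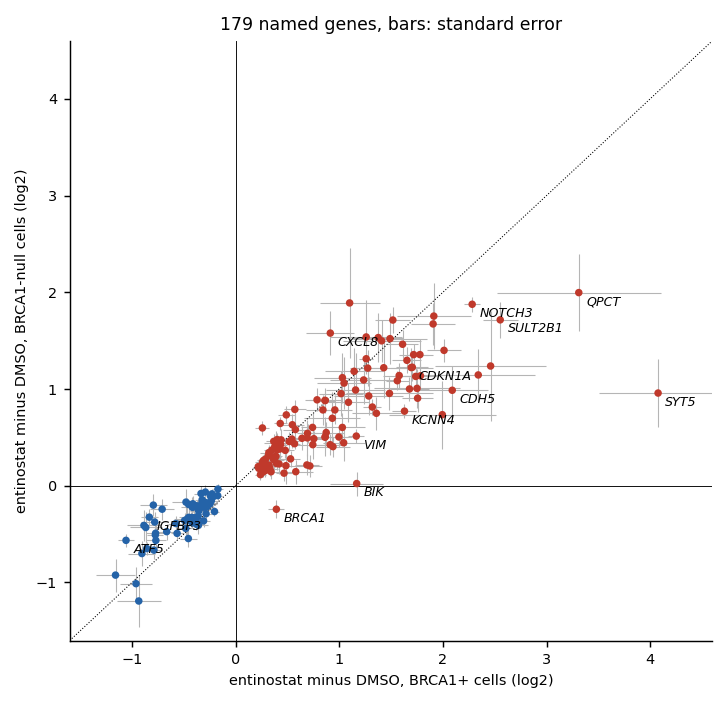
Log2 fold change of entinostat in BRCA1-null cells against that in BRCA1+ cells for 179 of the 186 named genes, with standard errors as bars and a dotted line of equality. Genes that rose in BRCA1+ cells are red and those that fell are blue, and BRCA1 lies below 0 on the vertical axis. The 7 genes left out, for very low counts in a group or shared keratin counts, are KRT78, KRT4, KRT79, KRT3, PDGFRA, SCN2A and PRTN3. KRT72, SYT5 and QPCT, which have similar limits, are drawn. The genes were chosen by their change in BRCA1+ cells, which favours points between the horizontal axis and the line of equality.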

How the data were processed

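Poly(A) RNA of 8 libraries, 2 for each of 4 groups, was sequenced by the authors. Reads were aligned to hg19 with TopHat and quantified with NGSUtils, and the authors deposited raw read counts per gene symbol, whose totals were 31900158 to 53549893 per library. Whether strand was used and how reads mapping to several places were counted is not given in the sources used here, so genes that overlap or share reads are uncertain.

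The members and gene lists were chosen with earlier results of these data known. Of 25369 symbols, 17714 passed edgeR's filterByExpr over the 4 groups, and 1 entry without a name, with 0 counts, was left out. A quasi-likelihood model (edgeR 4.0.16, R 4.3.3, TMM scaling) with 1 coefficient for each group was fitted to all 8 libraries, leaving 4 residual degrees of freedom, and p-values were adjusted by Benjamini and Hochberg over all tested genes. The same code was tested on simulated data. Standard errors of log2 fold changes come from the same fit. CPM refer to the effective library size, and 3 counts correspond to 0.0552 to 0.0946 CPM. Floors cover counting error only, whereas the standard errors include the spread between libraries estimated in the fit.

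Genes were named by rule: the 15 largest rises and falls among called genes with a mean of at least 3 log2 CPM and no overlap between groups, genes near 0 in one group, the 8 largest rises and falls in CPM, and up to 6 called members of each list by size of change. Called members named beyond these, such as TACC3, JUP, PKP3, L1CAM, RAB3A, LAMA3, LAMB2, ITGAV, ITGB3, PLAUR, TIMP2 and MMP15, were chosen after their values were seen, and uncalled genes were named for their role. Alternatives were other scalings and filters, the DESeq2 Wald test (DESeq2 1.42.0), fits of the compared groups only, the replicate number as a block, a minimum log2 fold change of 1 and each library left out. Windows before deposited gene starts were read from GRCh37 (hg19) for 17713 genes, and the 7 printed sequences are from RefSeq (GRCh38.p14), matched by symbol. Some items of the gene lists are not reported here.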

Additional observations from a re-analysis of the deposited data

Results flagged for a closer look

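BRCA1 was the named gene for which every entinostat library lay above every control in one line and below every control in the other. In BRCA1+ cells it had 98.9 and 92.4 CPM in the controls and 133 and 118 CPM with entinostat, and in BRCA1-null cells 20.97 and 22.4 and then 17.6 and 19.2 CPM. The difference of the 2 log2 fold changes, BRCA1-null minus BRCA1+, was -0.64, with an unadjusted p of 0.000527 in edgeR's quasi-likelihood test and an adjusted p of 0.967 over all genes, so that it did not pass the adjustment. The introduced copy and the resident gene cannot be told apart in these counts.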

How the results depend on the processing

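With 2 libraries a group, a fit without 1 of them leaves a single library in that group and can detect fewer changes. A lost call therefore does not show that 1 library decided it. The 2505 calls in BRCA1+ cells ranged from 679 to 1277 when 1 BRCA1+ library was left out, and from 2323 to 2414 when a BRCA1-null library was left out (an alternative chosen after seeing the data). The 1906 calls in BRCA1-null cells ranged from 512 to 1595 over all 8 omissions, those of BRCA1+ libraries being chosen after seeing the data. Without 1 BRCA1+ library, 63 to 137 members of gene lists were called in place of 207, new calls included, and 69 to 126 of 186 named genes were called, of which 57 were called in all 4 fits, while 44 were called in none. A minimum log2 fold change of 1 left 518 calls in the BRCA1+ line and 532 in the BRCA1-null line, and a fit of the compared groups alone gave 712 calls in BRCA1-null and 2583 in BRCA1+ cells. Other scalings, filters and the DESeq2 Wald test gave 2313 to 2495 calls in BRCA1+ cells, although with upper-quartile factors 157 of 207 called list members were higher, in place of 134. The test of the difference between lines called 0 genes in edgeR under every scaling, filter and omission run, 11 in the DESeq2 Wald test and 1 with a replicate block. Direction was followed for named genes under the other scalings, the DESeq2 Wald test, the compared groups alone, the replicate block and each BRCA1+ omission. No named gene changed direction there. It was not checked under the other filters or without a BRCA1-null library. Leaving out 101 genes whose counts match a neighbour in every BRCA1+ library, also chosen after seeing the data, left 2503 calls. Only exact matches were left out, so near matches such as KRT4 and KRT79 remained. The number of lower calls stayed at 1062, and the check cannot show how much shared counts contribute.

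The labels do not say that a replicate number marks a shared batch or day, and with 2 libraries a group the numbers were not taken to pair the libraries. Deviations of same-numbered libraries from their group means correlated at 0.052 to 0.29 over all genes in the 6 pairs of groups, with 4 above 0.1, and at 0.23 to 0.72 over genes of at least 3 log2 CPM, in both cases highest for the BRCA1+ pair. With the replicate block, 4319 genes were called in BRCA1+ cells with all 8 libraries and 7447 with the 4 BRCA1+ libraries, and 3641 and 4926 in BRCA1-null cells. Depth limits genes near 0, where 3 counts are the floor used.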

Other observations

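Some further gene lists are given with the shares of all tested genes, 8.15% higher and 6.0% lower, for comparison. Of 16 tested markers of ovarian carcinoma 5 rose and 0 fell (31.2% higher), and the summed level of the 18 markers was 14900.0 to 15800.0 CPM in control and 17900.0 to 18100.0 CPM in entinostat libraries. WFDC2, the serum marker HE4, had 5.83 and 4.49 CPM in the controls and 10.5 and 9.25 CPM with entinostat (0.93 ± 0.269, adjusted p 0.0493), and its call was lost whichever BRCA1+ library was left out. Binding proteins of insulin-like growth factors parted. IGFBP6 rose from 5.10 and 3.92 to 9.52 and 8.86 CPM (1.03 ± 0.217) and IGFBP2 by 0.32, whereas IGFBP5 fell by 0.47 and IGFBP3, given above, by 0.83. Of the ERBB ligands, HBEGF rose by 0.57 and NRG1 fell by 0.33. The IGFBP3 call was stable and the other 5 were not.

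Of 28 tested membrane transporters 4 rose and 1 fell (14.3% and 3.57%). ABCC3, an exporter of organic anions and drug conjugates, rose from 65.01 and 64.6 to 85.1 and 89.5 CPM (0.43 ± 0.0639, adjusted p 0.00405) and was stable. The glutamate transporter SLC1A3 rose from 21.4 and 22.4 to 29.3 and 31.1 CPM and the neutral amino acid transporter SLC43A1 from 3.03 and 2.66 to 6.12 and 4.91 CPM, each called in 3 of the 4 fits without a BRCA1+ library. Of 18 p53 target genes 2 rose (11.1%, near the share of all genes), SPATA18 and TNFRSF10B. Of 16 genes of DNA methylation and Polycomb repressive complex 2, where the shares called were also near those of all genes (6.25% in each direction), the methyltransferase DNMT3B rose by 0.26 and the dioxygenase TET3 fell by 0.32. None of these 4 calls was stable. The group of 16 genes that fell by at least 1 on the log2 scale held, besides ATF5, NOG and the keratin genes, mostly genes at low counts, such as MKRN3, an imprinted ring-finger gene, at 71 and 51 counts in the controls and 14 and 19 with entinostat (-1.74 ± 0.354, adjusted p 0.01), and ADAM12, a membrane metalloproteinase, at 124 and 183 and then 66 and 61 counts (-1.13). MKRN3 and ADAM12 were chosen after their values were seen.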
